A study of Mus musculus with 12 samples.

Results

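Collagens are the triple-helical proteins of connective tissue, and the ADAMTS proteins are secreted metalloproteases, or protease-like glycoproteins without a catalytic domain (Adamtsl), that cut or organise the matrix those collagens build. The genes described here are all protein-coding mouse genes whose symbol is Col, a number, a and a number, or begins with Adamts. They were 68 of 21911 protein-coding genes with distinct symbols, 44 collagen genes and 24 Adamts or Adamtsl genes. The rule that picks them uses the symbol alone and no measured value, but these families were chosen with earlier results of these data known. The assay was ATAC-seq, which marks open chromatin by the sites a transposase can reach, on 2 mouse tumour lines. The 4 groups were 4T1, a mammary carcinoma line, treated with 1 µM decitabine (DAC) for 48 h, untreated 4T1, B16F10, a melanoma line, treated with 0.1 µM DAC for 48 h, and untreated B16F10. Each group held 3 libraries, made from live cells after dead cells had been taken out with beads. DAC is a cytidine analogue that is built into replicating DNA and traps DNA methyltransferases, so that methylation is lost as cells divide. The doses differ between the lines, so line and dose cannot be told apart in any comparison of the responses.

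In a matrix, fibril-forming collagens are made as procollagens, trimmed outside the cell and crosslinked, and fibril-associated collagens decorate their surface. Type IV collagens form the net of basement membranes, type VI collagen forms beaded filaments, and type VII anchors epithelium to the tissue beneath it. Adamts2, Adamts3 and Adamts14 remove procollagen propeptides, another set cuts proteoglycans such as aggrecan and versican, and Adamts6, Adamts10 and Adamts17 act on fibrillin microfibrils. Fibroblasts make most fibrillar collagen, while carcinoma and melanoma cells make some matrix of their own. Several promoters of these families are rich in CpG and are known to gain methylation in cancer cells.

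A promoter is the 5′ end of the gene with 1000 bp on each side, and it counted as called in a library when a peak of that library overlapped it by at least 1 bp. "DAC libraries alone" means a call in 3 of 3 DAC libraries and in 0 of 3 controls of the line. The libraries had between 50126 and 119795 peaks, more in 4T1 than in B16F10. The fold enrichment of a peak is the authors' ratio to the local background, and the strength percentile places its −log10 q among all peaks of that library. Both serve here only to describe peaks within a list. An open promoter is not a measure of transcription, and no RNA was used here. The labels do not say whether the 3 libraries of a group are separate cultures. The p-values therefore measure the spread among libraries that may be technical repeats. Of 10 epithelial markers, 9 had a promoter peak in every 4T1 library of both arms and 0 in 3 of 3 B16F10 libraries of either arm. Of 8 melanocyte markers, 7 were called in 3 of 3 treated and in 3 of 3 untreated B16F10 libraries, against 3 in treated and 2 in untreated 4T1. Of 9 fibroblast markers, 1 (Twist2) was called in 3 of 3 treated 4T1 libraries, 0 in untreated 4T1 and 1 (Pdgfrb) in either arm of B16F10. These calls are at the 5′ end. With every annotated start counted, the epithelial Grhl2 and the fibroblast Pdgfra were called in 3 of 3 libraries of every group. Epithelial Esrp1 was then called in 3 treated and 2 untreated B16F10 libraries. Fibroblast Thy1 was called in 3 of 3 libraries of both 4T1 arms, and melanocyte Sox10 in 3 treated 4T1 libraries.

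The sequences below belong to the promoters on which the DAC comparison in 4T1 turns, and they are shown because the CpG dinucleotide is the site that DNA methyltransferases modify. CG is in capitals, and each strand is the minus strand of GRCm38 read in the direction of the gene. Adamts18 and Adamts3 are the 250 bases before the annotated start, Col19a1 is 300 bases of the first part of the gene, within an intron, around its treated peak, and Col6a1 is the 250 bases before the start of the gene with the opposite pattern, chosen after its values were seen.
Adamts18 (chr8:113848840-113849089): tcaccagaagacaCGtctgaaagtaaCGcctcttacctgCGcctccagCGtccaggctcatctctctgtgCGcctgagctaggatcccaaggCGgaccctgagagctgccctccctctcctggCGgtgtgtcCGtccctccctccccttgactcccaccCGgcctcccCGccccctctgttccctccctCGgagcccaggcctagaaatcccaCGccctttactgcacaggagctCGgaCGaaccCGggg
Adamts3 (chr5:89883335-89883584): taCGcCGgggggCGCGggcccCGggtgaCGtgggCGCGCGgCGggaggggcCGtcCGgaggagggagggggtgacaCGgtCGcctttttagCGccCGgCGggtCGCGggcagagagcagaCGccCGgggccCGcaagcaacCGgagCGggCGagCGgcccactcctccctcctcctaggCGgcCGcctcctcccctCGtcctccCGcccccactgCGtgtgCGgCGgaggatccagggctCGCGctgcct
Col19a1 (chr1:24586779-24587078): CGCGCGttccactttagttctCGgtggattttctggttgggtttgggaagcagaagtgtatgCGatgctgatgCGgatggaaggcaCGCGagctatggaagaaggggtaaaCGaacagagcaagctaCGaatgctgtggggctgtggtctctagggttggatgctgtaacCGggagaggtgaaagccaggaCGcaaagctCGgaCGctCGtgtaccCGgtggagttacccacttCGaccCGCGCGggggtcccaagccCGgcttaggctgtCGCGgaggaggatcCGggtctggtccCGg
Col6a1 (chr10:76726169-76726418): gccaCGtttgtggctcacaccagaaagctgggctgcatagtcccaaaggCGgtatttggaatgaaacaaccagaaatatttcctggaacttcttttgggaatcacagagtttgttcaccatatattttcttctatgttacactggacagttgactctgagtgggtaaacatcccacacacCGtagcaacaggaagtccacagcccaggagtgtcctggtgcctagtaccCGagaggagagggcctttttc

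The Adamts3 window held 35 CG, the Col19a1 window 25, the Adamts18 window 15 and the Col6a1 window 4. In the 250 bases before the start, the median was 8.5 over the 68 genes and 8 over all 21911 genes. The GC box GGGCGG, sought on both strands, had 1 match in the Adamts18 and 1 in the Adamts3 window and none in the others. It was present in 50.0% of the 68 upstream windows and in 39.0% of all. The CCAAT motif, the TATA box TATAAA and the AP-1 motif TGANTCA, also sought on both strands, had no match in the 4 printed windows. TGANTCA was in 0 of the 68 upstream windows, against 6.06% of all genes, CCAAT in 29.4% against 36.0%, and TATAAA in 14.7% against 11.5%.

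Together, the 68 promoters carried peaks less often than the average promoter in every library, and the gap was wider in B16F10. The families differed. The 44 collagen promoters lay under the share of all promoters in every library, the 24 Adamts promoters only in the B16F10 controls. In treated 4T1, 18 Adamts promoters were called in each library, and 21, 24 and 19 collagen promoters. In untreated B16F10, 11 Adamts promoters were called in each library, and 9, 11 and 9 collagen promoters. In 4T1, 39, 42 and 37 of the 68 promoters were called in the DAC libraries, and 33, 33 and 34 in the controls. In B16F10, 22, 27 and 23 were called in the DAC libraries, and 20, 22 and 20 in the controls. The DAC libraries lay above the controls in 4T1 without overlap, while in B16F10 the lowest DAC library had as many called promoters as the highest control. As a share this was 57.9 ± 3.72% of the members in treated and 49 ± 0.866% in untreated 4T1 (SD, n = 3 each). All promoters had 61.6 ± 0.60% and 56.4 ± 0.200% in the same groups. In B16F10 the members had 35.3 ± 3.87% in treated and 30.4 ± 1.73% in untreated libraries, against 50.3 ± 0.458% and 49.6 ± 0.173% of all promoters. The treated libraries also had longer peak lists, on average 113587 ± 5530 against 92880 ± 2247 peaks in 4T1 and 55882 ± 2240 against 52589 ± 2133 in B16F10, and the part of list length in these counts was not tested beyond the equal-number setting given below.

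**Figure D1:**
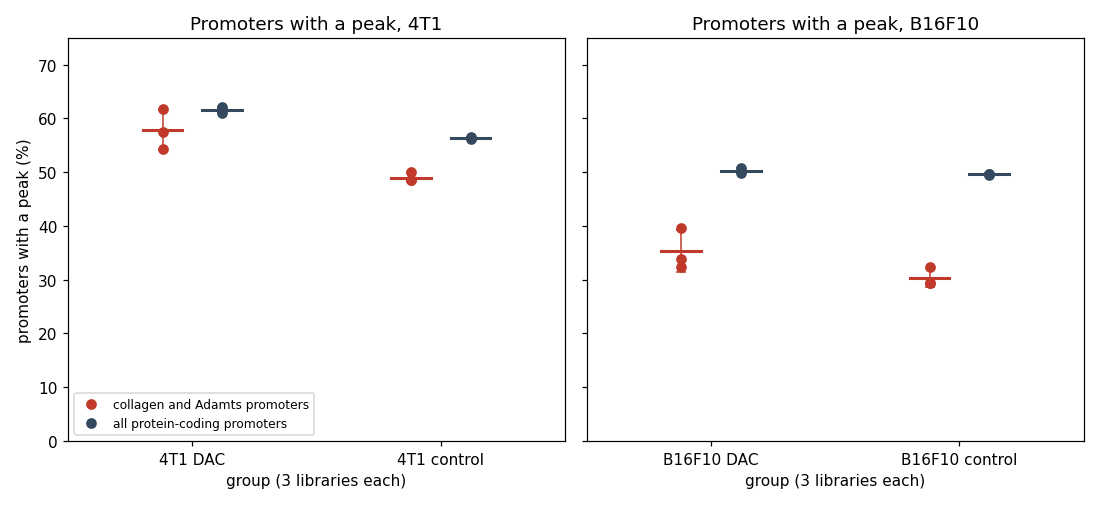
Share of promoters with a peak (%) in each library, for the 68 collagen and Adamts genes (red) and all 21911 protein-coding genes (dark), with 4T1 on the left and B16F10 on the right. Points are libraries, horizontal bars are means and error bars are SD (n = 3). The red points lie between 54.4 and 61.8% in treated 4T1 and between 29.4 and 32.4% in untreated B16F10.

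The question of the treatment was which of these promoters had a peak after DAC and none before. In 4T1 they were 4 of 68 (5.88%), Adamts18, Adamts19, Adamts3 and Col19a1, where 4.22% of all promoters did the same. The share is near the background and is no result about the family as a whole. Of the promoters with no control call, which are those that could pass, 4 of 34 (11.8%) were called in the DAC libraries alone, against 9.93% of all such promoters. The 4 comprised 3 of 9 such Adamts promoters and 1 of 25 such collagen promoters, a difference in counts for which no test was made.

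Adamts18 encodes a secreted protease with few known substrates, and its promoter peak had a fold enrichment of 2.90, 3.20 and 4.46 in the treated 4T1 libraries, against no peak in any of the 3 controls. The region spans chr8:113848434-113848812 over the start of the gene, directly beside the printed sequence. The peaks ranked at the 6.14, 13.0 and 26.8 percentile of their lists, so all 3 were among the weaker peaks. No B16F10 library of either arm had a peak there. Adamts19, a related protease on chromosome 18, had folds of 3.05, 3.60 and 4.30 at percentiles of 8.38, 19.6 and 24.9 in treated 4T1, and no peak in untreated 4T1 or in B16F10. Its region spans chr18:58836199-58836975, and its pattern over the 12 libraries is that of Adamts18.

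Adamts3 removes the amino-terminal propeptide of fibrillar procollagen and, in the mouse, activates the lymphatic growth factor Vegfc. Its peak had folds of 3.05, 3.33 and 2.39 in treated 4T1, at percentiles of 8.38, 15.2 and 0.170, and none in untreated 4T1. The third treated library therefore called it at the very end of its list. In B16F10 the same promoter was called in 2 of 3 treated libraries, with folds of 4.23 and 5.33, and in 3 of 3 untreated ones, with folds of 3.96, 4.88 and 5.35. It was thus open in untreated melanoma cells and called in carcinoma cells after DAC. In 4T1 the region is chr5:89883132-89883414, across the start of the gene and the near end of the printed sequence.

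Col19a1 encodes a fibril-associated collagen of basement membrane zones. Its folds were 2.90, 3.06 and 3.50 in treated 4T1, at percentiles of 6.14, 10.7 and 13.8, with no peak in untreated 4T1 or any B16F10 library. The summits lay 544, 306 and 706 bp downstream of the 5′ end, within the region chr1:24586503-24587303, which held 9.24 CpG per 100 bp. The 4 regions lie inside the promoter windows, so their lack of a control call follows from the selection and adds no support. Col14a1, a fibril-associated collagen, had a further region of this kind next to its start (chr15:55307825-55308743), called in 3 of 3 DAC libraries and 0 of 3 controls of 4T1. It is not among the 4 because an upstream peak reached its window in all 6 libraries, and with the summit required inside the window the count was 5, with Col14a1, against 4.07% of all promoters.

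Col6a1, a chain of type VI collagen, was the 1 member with the opposite pattern in 4T1, with no peak in the DAC libraries and folds of 2.73, 3.75 and 2.85 in the controls. That is 1.47% of the members, where 0.42% of all promoters were called in controls alone. In B16F10 it was called in 1 treated library, with a fold of 3.84, and in no control. Its region in 4T1 is chr10:76725842-76726283 over the start of the gene, and its promoter had 1.00 CpG per 100 bp. Without DAC replicate 2 the count in controls alone was 2, as Adamts12, which had folds of 4.29, 5.16 and 3.99 in the controls, had its single treated call in that library.

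**Figure D2:**
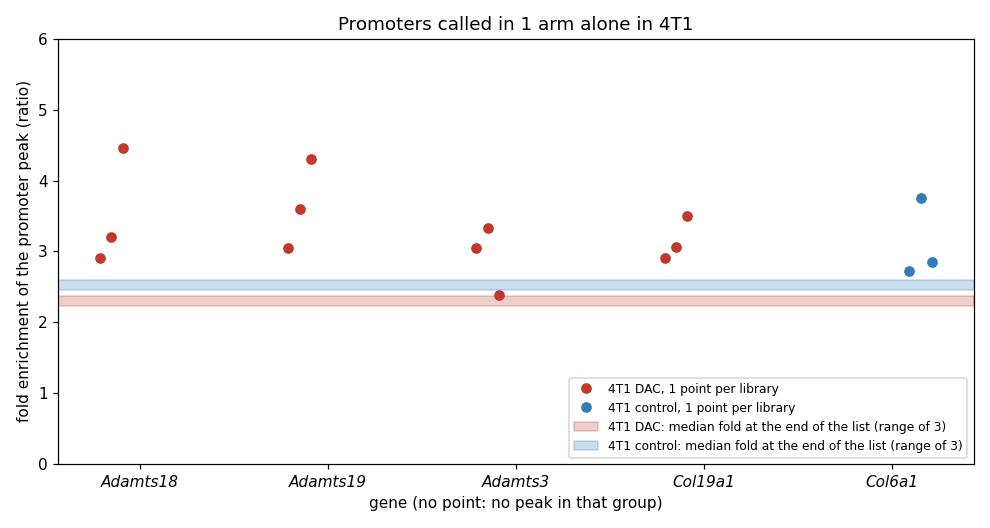
Fold enrichment (ratio to local background) of the promoter peak in each 4T1 library, DAC in red left of control in blue, for the 5 members called in 1 arm alone. Shaded bands give the range over 3 libraries of the median fold of the weakest peaks (−log10 q below 2). Most points lie between 2.73 and 4.46, a short way above both bands, and the lowest, Adamts3 at 2.39, lies above the DAC band and under the control band.

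These calls lie near the threshold of the lists, which end at a q of 0.05. The weakest peaks, with a −log10 q below 2, had a median fold of 2.25, 2.23 and 2.36 in the treated 4T1 libraries, against 2.46, 2.58 and 2.59 in the controls. Of the 12 peaks of the 4 promoters, the third Adamts3 peak is the 1 that lay under the control values. With a −log10 q of at least 5, with a fold of at least 5, or with the strongest 89780 peaks of each 4T1 library, the count of 4 became 0, while 3.01%, 1.14% and 2.22% of all promoters still passed. The count in controls alone rose in these settings, as given at the end, with no share of all promoters beside it. No single promoter could pass a test within a line, since 3 against 3 libraries cannot give less than p = 0.10 (exact permutation, two-sided), and all 4 gave that value. Over both lines, with treatment permuted within each line, no member reached an exact permutation p of 0.05 (smallest possible 0.005), against 38 of 21911 promoters, and 0 promoters passed after Benjamini-Hochberg adjustment.

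A further 7 members had a peak in 1 or 2 treated 4T1 libraries and in no control. With 2 of 3 treated libraries these were Adamts2, a propeptide protease (folds 2.91 and 3.95), Adamts15, which cuts proteoglycans (2.40 and 2.87), Col9a3 of cartilage (2.54 and 2.75), Col13a1, a transmembrane collagen (2.90 and 2.67), and Col26a1 (4.13 and 2.87, with summits 1039 and 1026 bp downstream). Col6a5 and Col22a1 had a peak in 1 treated library. At least 1 treated library called 11 of the 34 members without a control call (32.4%), against 18.2% of all such promoters, and at least 2 called 9 (26.5%), against 13.5%. These folds are in the same low range as those of the 4 genes above, and none of the 7 gave a p under 0.40 (exact permutation, two-sided).

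In B16F10 no member was called in 3 of 3 DAC libraries and 0 of 3 controls, where 0.228% of all promoters were (0.464% of those with no control call), and none in controls alone, where 0.0685% were. At the exact permutation p of 0.05 the count within this line is also 0 for any promoter, since 0.10 is the smallest p possible. At least 1 DAC library called 8 of the 45 members with no control call (17.8%), against 4.08% of all such promoters, and at least 2 called 4 (8.89%), against 1.41%. The 4 were Adamts13, which cuts von Willebrand factor, with folds of 3.33 and 6.04, Adamtsl2 with 5.15, from a peak with its summit outside the window, and 3.31, Adamts17 with 5.75 and 6.41, and Col8a1, a short-chain collagen, with 3.00 and 3.40. The 2 Col8a1 peaks do not overlap, so each of these regions was called in 1 DAC library. They ranked at the 0.324 and 2.23 percentile of their lists, near the end. None of the 4 was called at the 5′ end in all 3 DAC libraries, and DAC replicate 2 alone had 27 called members against 22 and 23 in the other DAC libraries. With every annotated start counted, Adamtsl2 and Adamts17 were called in all 6 B16F10 libraries. Without DAC replicate 1 the count in DAC libraries alone was 3, and without DAC replicate 3 it was 1. The Col4a6 window was touched in 2 of 3 controls and in no DAC library, so that leaving out control replicate 1 gave 1 promoter in controls alone. The peak is that of the neighbouring Col4a5, with its summit outside the Col4a6 window, and the merged region (chrX:141475048-141476901) was called in all 6 B16F10 libraries, so no difference between the arms is shown at Col4a6. Whether the responses of the lines differ was not tested for any promoter.

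**Figure D3:**
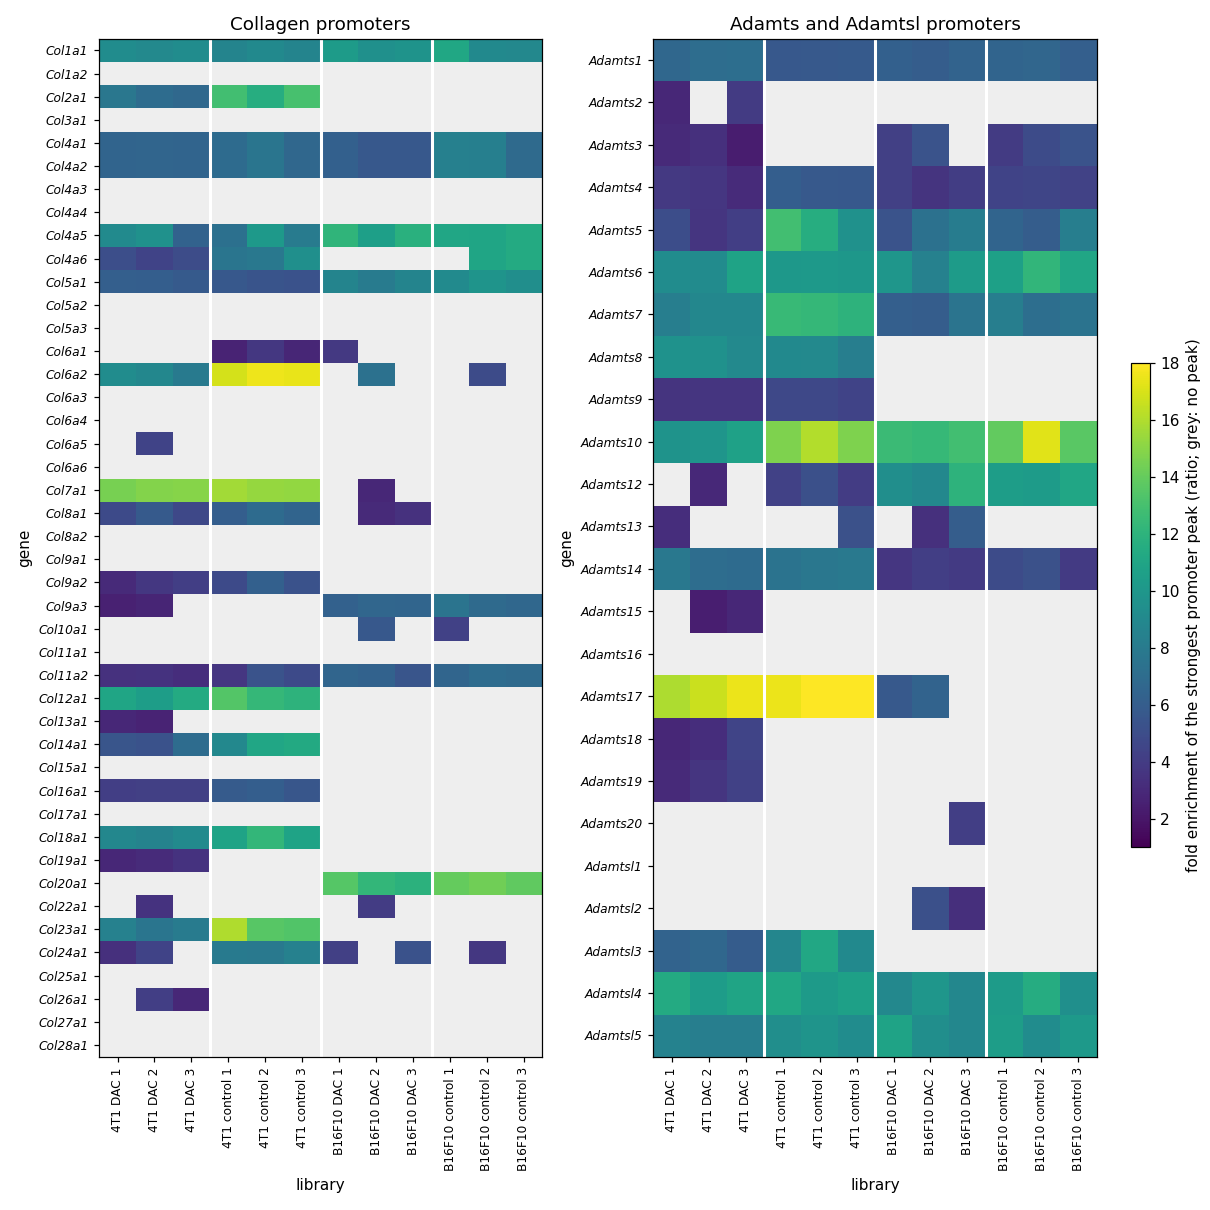
Fold enrichment (ratio, colour) of the strongest promoter peak for each of the 44 collagen genes (left) and 24 Adamts and Adamtsl genes (right), by rows, in the 12 libraries, by columns. Grey means no peak. Adamts18, Adamts19 and Col19a1 are coloured in treated 4T1 alone, Col20a1 in B16F10 alone, the B16F10 cells of Col4a6 are the Col4a5 peak, and 15 rows are coloured in all 12 libraries.

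More of these promoters differed between the cell lines than between the arms of either line. In untreated cells 14 of the 68 promoters (20.6%) were called in 3 of 3 4T1 libraries and in 0 of 3 B16F10 libraries, where 8.03% of all promoters were. The reverse held for 3 (4.41%), against 1.94% of all promoters. An exact permutation test of 3 against 3 libraries gives p = 0.10 for each of them, and none passed after adjustment over all promoters. With 49622 peaks in each library the 14 became 11, against 5.54% of all promoters, without Col9a2, Adamts9 and Col6a1.

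Among the collagens called in untreated 4T1 and not in untreated B16F10 was Col7a1, which forms the anchoring fibrils of epithelia. It had folds of 14.5, 14.9 and 14.9 in treated 4T1 and of 15.7, 15.3 and 15.2 in untreated 4T1. In B16F10 it had 1 peak, with a fold of 2.89, in 1 treated library. Col23a1, a transmembrane collagen, had folds of 8.44, 7.60 and 8.05 in treated and 16, 13.6 and 13.4 in untreated 4T1. Col18a1, the basement membrane collagen from which endostatin is released, had 8.88, 8.57 and 9.13 in treated and 10.9, 12.3 and 10.8 in untreated 4T1. None of the B16F10 libraries called Col23a1 or Col18a1 at the 5′ end.

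The fibril-associated group gave 4 of the 14. Col12a1, which bridges type I fibrils, had folds of 11.0, 10.5 and 11.4 in treated and 13.5, 12.3 and 12 in untreated 4T1. Col14a1, its close relative, had 5.5, 5.29 and 7.0 in treated and 8.90, 11.1 and 11.3 in untreated 4T1, from a peak whose summits lay more than 1000 bp upstream, outside the window. Its second region, at the start, is the one called in treated 4T1 alone that is given above. Col16a1 had 4.16, 4.21 and 4.22 in treated and 5.86, 6.08 and 5.58 in untreated 4T1. No B16F10 library called any of these. Col9a2, a chain of the type IX collagen of cartilage, was weaker, with 3.05, 3.73 and 4.14 in treated and 4.85, 6.21 and 5.29 in untreated 4T1, and was not called in B16F10. Col2a1, the main fibrillar collagen of cartilage, had 7.72, 6.99 and 6.77 in treated and 12.9, 11.6 and 13.0 in untreated 4T1. Col8a1 had 4.85, 5.81 and 4.71 in treated and 6.09, 6.96 and 6.46 in untreated 4T1, besides the 2 treated B16F10 calls above. Col6a1 is described above. Of these genes, Col2a1, Col16a1 and, in part, Col18a1 had peaks in B16F10 at another annotated transcript start, so for them the difference belongs to 1 start and not to the gene.

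Among the Adamts genes called in untreated 4T1 and not in untreated B16F10, Adamts17, a fibrillin-linked protease, had the highest folds. Its folds were 15.9, 16.6 and 17.5 in treated and 17.5, 18.3 and 18.2 in untreated 4T1. With every annotated start counted it was called in all 6 B16F10 libraries. Adamts8, a proteoglycan protease, had 9.69, 9.60 and 9.01 in treated and 9.06, 9.01 and 8.25 in untreated 4T1. Adamts9, which cuts versican, had 3.53, 3.63 and 3.64 in treated and 4.66, 4.70 and 4.40 in untreated 4T1. Adamtsl3 had 6.40, 6.65 and 5.98 in treated and 8.78, 11.2 and 9.04 in untreated 4T1. Adamts8, Adamts9 and Adamtsl3 had no peak at the 5′ end in any B16F10 library.

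The 3 promoters called in untreated B16F10 and not in untreated 4T1 were Col20a1, Col9a3 and Adamts3. Col20a1, a fibril-associated collagen, had folds of 13.5, 12.2 and 11.9 in treated and 14.0, 14.3 and 13.8 in untreated B16F10, and no peak in any 4T1 library. The summits lay 1224 to 1346 bp downstream of the 5′ end, so the peak reached into the window from outside, and with the summit required inside the window Col20a1 was not called. Col9a3 had 6.26, 6.63 and 6.54 in treated and 7.53, 6.85 and 6.66 in untreated B16F10, together with the 2 weak treated 4T1 peaks above. With DAC in both lines, 14 promoters (20.6%) were called in 4T1 and not in B16F10, where 10.7% of all promoters were, and 1 (1.47%), Col20a1, in B16F10 and not in 4T1, where 1.34% were. Adamts18, Adamts19 and Col19a1 joined the first set with treatment. Col4a6 was also in it, since the edge of the Col4a5 peak did not reach its window in treated B16F10, and Col6a1, Col7a1, Col8a1 and Adamts17 were no longer in it.

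In all 12 libraries 15 promoters were called (22.1%), against 45.8% of all promoters, and in none of the 12 19 were (27.9%), against 32.3%. Within a line, 30 (44.1%) were called in all 6 4T1 libraries, against 54.3% of all promoters, and 18 (26.5%) in all 6 of B16F10, against 48%. No 4T1 library called 23 members (33.8%), against 34.8%, and no B16F10 library called 37 (54.4%), against 47.1%. The 15 were 9 of the 24 Adamts genes and 6 of the 44 collagens. Of the 19 without a call, 17 were collagens, among them Col1a2, Col3a1, Col5a2 and Col6a3, chains that fibroblasts make in quantity, and 2 were Adamts16 and Adamtsl1. Col1a1, the partner of Col1a2 in type I collagen, was called in all 12, with folds of 9.28, 8.98 and 9.24 in treated and 8.66, 9.05 and 8.69 in untreated 4T1, and of 10.3, 9.54 and 9.75 in treated and 11.1, 9.06 and 8.96 in untreated B16F10. The groups overlap. The 5′ end of a gene model need not be the start in use. When every annotated start was allowed, 22 members were called in all 12 libraries (32.4%, against 50.2% of all genes) and 11 in none (16.2%, against 27.4%). Col1a2, Col8a2, Col15a1 and Col28a1 then had peaks in every 4T1 library, Col9a1 in every B16F10 library and Col27a1 in all 12. Col17a1 had them in 3 treated and 2 untreated 4T1 libraries and in 1 treated and 3 untreated B16F10 libraries. Col25a1 had a peak in 1 treated 4T1 library. On the same count 6 members (8.82%) were called in treated 4T1 alone, adding Adamts2 and Col9a3, against 4.42% of all genes, and 1 in untreated 4T1 alone, against 0.361%. In B16F10 there was still no member called in 1 arm alone, against 0.283% of all genes for DAC and 0.0867% for controls. Between the untreated lines 13 members (19.1%) were called in 4T1 and not in B16F10, against 7.93%, and 5 (7.35%) in B16F10 and not in 4T1, against 2.01%.

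Among the promoters called in all 12 libraries, the highest median fold was that of Adamts10, a fibrillin-linked protease, with 9.72, 9.87 and 10.7 in treated and 14.7, 16 and 14.7 in untreated 4T1, and with 12.6, 12.4 and 12.9 in treated and 13.9, 17.2 and 13.7 in untreated B16F10. The treated libraries lay under the controls in both lines. The median fold of all peaks was also lower in treated 4T1, 5.84, 5.60 and 6.05 against 8.38, 8.07 and 8.18, and in treated B16F10, 7.67, 7.49 and 7.52 against 8.48, 8.64 and 8.21, so a lower fold at a member is shared with the lists as a whole. Adamts6, of the same group, had 9.24, 9.20 and 10.9 in treated and 10.1, 10.1 and 9.99 in untreated 4T1, and 9.91, 8.47 and 10.3 in treated and 10.7, 12.2 and 11.1 in untreated B16F10. Adamtsl4, which binds fibrillin, had 11.4, 10.4 and 10.9 in treated and 11.1, 10.2 and 10.7 in untreated 4T1, and 8.94, 9.96 and 8.88 in treated and 10.3, 11.5 and 9.48 in untreated B16F10. In 4T1 the arms overlapped for both genes. Adamtsl5 had 8.52, 8.26 and 8.26 in treated and 9.40, 9.80 and 9.26 in untreated 4T1, and 10.8, 9.37 and 8.84 in treated and 10.5, 9.26 and 10.2 in untreated B16F10.

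The type IV collagen genes lie in head-to-head pairs, and the pairs differed. Col4a1 and Col4a2, the chains of nearly every basement membrane, start 21 bp apart and shared 1 peak in all 12 libraries, so they are a single measurement. In the untreated B16F10 libraries its summit lay 1040 to 1047 bp downstream of the Col4a2 start, just outside both windows. Its folds were 6.48, 6.53 and 6.47 in treated and 6.93, 7.60 and 6.71 in untreated 4T1, and 6.23, 5.69 and 5.70 in treated and 8.39, 8.31 and 6.87 in untreated B16F10. Col4a3 and Col4a4, chains of the kidney glomerulus, start 72 bp apart and had no peak in any library. Col4a5, on the X chromosome, was called in all 12, with folds of 9.15, 9.59 and 6.37 in treated and 7.30, 10.2 and 8.06 in untreated 4T1, and 12.2, 10.6 and 11.8 in treated and 11.1, 11.0 and 11.4 in untreated B16F10. Col4a6, its neighbour, had 5.08, 4.40 and 4.94 in treated and 7.63, 7.82 and 9.48 in untreated 4T1, with summits within its window. In B16F10 it had no peak of its own, since the 2 control calls are the Col4a5 peak, and there the pair is a single measurement.

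The proteoglycan-cutting Adamts1 and Adamts5 were also called in all 12 libraries. Adamts5, an aggrecanase, had folds of 4.98, 3.60 and 4.18 in treated and 12.9, 11.6 and 9.58 in untreated 4T1, and 5.38, 7.32 and 8.17 in treated and 6.47, 6.01 and 8.28 in untreated B16F10. By fold the 4T1 arms do not overlap, and the B16F10 arms do. By strength percentile the 4T1 arms overlap as well, with 46.4, 30.2 and 34.6 in treated and 54.8, 52.9 and 45.4 in untreated libraries. Adamts1 had 6.68, 7.10 and 7.16 in treated and 5.66, 5.72 and 5.80 in untreated 4T1, from a broad peak whose summits lay 1740 to 2234 bp downstream, outside the window. In B16F10, with summits near the start, it had 6.24, 6.03 and 6.39 in treated and 6.48, 6.59 and 6.15 in untreated libraries, and these overlap. A second Adamts1 region (chr16:85801923-85802521) was called in 0 of 3 treated and 3 of 3 untreated B16F10 libraries. Adamts5 and Adamts1 were picked for these folds after they had been seen.

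The median CpG density differed between the call classes in 4T1, within these families and over all promoters, while the ranges of the classes overlapped. No test was made of it. Adamts18, Adamts19, Adamts3 and Col19a1 had on median 5.42 CpG per 100 bp (4.65 to 6.10), against 4.75 over the 925 promoters called in treated 4T1 alone. The 30 called in all 6 libraries had 4.12, against 4.40, and the 23 called in none had 1.90, against 0.850. When all promoters were ranked by CpG density into 5 equal bins, from the poorest to the richest, the share of promoters without a control call that was called in DAC libraries alone was 1.07, 3.91, 15, 36.2 and 66.6%. The members gave 0 of 3, 0 of 14, 0 of 6, 2 of 7 and 2 of 4 in the same bins. All 4 members thus lay in the upper bins, as most such promoters did.

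**Figure D4:**
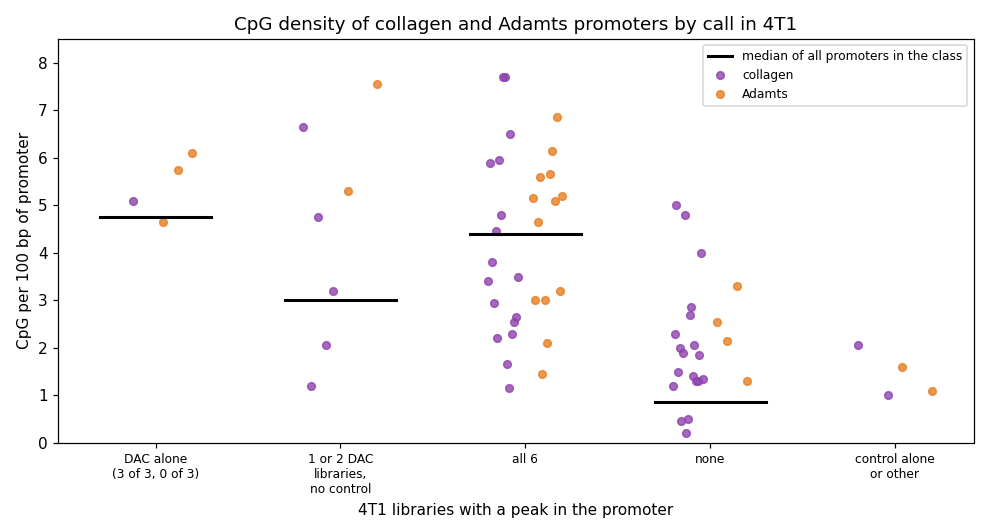
CpG per 100 bp of the promoter, 1000 bp on each side of the 5′ end (vertical axis) for each collagen (purple) and Adamts (orange) gene, by the 4T1 libraries that called it (horizontal axis). Black lines are the medians of all protein-coding promoters in the class. The 4 promoters called in DAC libraries alone lie between 4.65 and 6.10, and those called in none have a median of 1.90.

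Outside the promoters, peaks in the bodies of these genes gave the same order of groups. The bodies held 407 ± 21.8 peaks in treated and 358 ± 8.39 in untreated 4T1, and 220.0 ± 17.1 in treated and 197 ± 7.09 in untreated B16F10 (SD, n = 3 each). As a share of all peaks in gene bodies this was 0.846%, 0.873%, 0.867% and 0.851% in the same order, so it hardly differed between the groups. After merging, 4T1 had 552 regions, of which 49 (8.88%) in 28 genes were called in DAC libraries alone, where 10.1% of all regions in gene bodies were. In controls alone 29 (5.25%) were called, where 4.13% of all were. B16F10 had 314 regions, of which 6 (1.91%) were called in DAC libraries alone, where 2.66% of all were, and 1 (0.318%), in Adamtsl3, in controls alone, where 0.962% were. These shares are near the background. All 6 libraries called 250 of the 4T1 regions (45.3%), where 42.9% of all regions were so called, and 39.2% of the B16F10 regions, where 38% were. The B16F10 counts rest on single libraries and were 11 to 13 when any 1 DAC library was left out, and 5 in controls alone without DAC replicate 2 or control replicate 1, 4 without control replicate 3 and 2 without DAC replicate 3.

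The strongest regions called in DAC libraries alone in 4T1 were stronger than the promoters. An intron of Col23a1 (chr11:51437439-51438121) had folds of 6.53, 7.20 and 7.37, and a second one of the same gene (chr11:51441592-51442162) had 5.37, 5.55 and 5.33. The second exceeded the first in repeat content, with 81.6% of its bases repeat-masked against 60.0%. An exonic region of Adamts5 (chr16:85898907-85900277), centred 2236 bp downstream of the start, had 7.92, 10.2 and 9.33, with 2.12% repeat bases and 5.32 CpG per 100 bp. It is the same gene whose promoter peak had lower folds in treated 4T1. Introns of Col4a4, whose promoter had no peak in any library, gave chr1:82501968-82502530 with 7.74, 6.97 and 6.92 and chr1:82500855-82501450 with 6.44, 7.55 and 7.10. Both were mostly repeat sequence, as were 32.7% of the 49 regions and 28.1% of all such regions.

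In B16F10 an exonic region of Col7a1 (chr9:108977812-108978531) was the strongest, with folds of 7.40, 12.1 and 10.2 in the DAC libraries and no control peak. The others were an exonic region of Col15a1 (chr4:47293111-47294464) with 6.11, 5.34 and 5.28, and introns of Col5a1 (chr2:27936258-27937099) with 5.64, 6.73 and 5.08, Adamtsl3 (chr7:82379858-82380245) with 7.30, 5.33 and 4.91, and Col9a1 (chr1:24245830-24246245) with 6.74, 3.96 and 4.91. They had between 1.31 and 2.40 CpG per 100 bp, less than the named Col23a1 and Adamts5 regions of 4T1. That contrast does not extend to the lines. Over all member regions called in DAC libraries alone, the median was 2.06 in B16F10 and 2.07 in 4T1.

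Of 65 other genes of collagen and matrix handling, 5 (7.69%, against 4.22% of all promoters) were called in treated 4T1 alone and 0 in controls alone, and 0 in either direction in B16F10. Lox and Loxl1, which crosslink collagen and elastin, had folds of 3.34, 3.06 and 3.03 and of 4.98, 3.70 and 3.31 in treated 4T1, and no control peak. Colgalt2, a collagen galactosyltransferase, had 3.92, 3.33 and 3.19, and the brain proteoglycan Bcan, which Adamts4 and Adamts5 cut, had 3.05, 2.60 and 3.54. Mrc2, a receptor that takes up collagen, had 5.14, 4.53 and 3.78, but another of its starts was called in all 3 controls. Lox, Colgalt2 and Bcan lay within the range of the 4 member promoters, and Mrc2 and Loxl1 reached higher folds. The Lox peak of DAC replicate 2 did not overlap those of the other DAC libraries, and its summit lay 1043 bp downstream, outside the window. Loxl1 also had a peak in 1 treated B16F10 library, with a fold of 3.84. Of the 17 genes of collagen hydroxylation and folding, 17 were called in 3 of 3 treated and 16 in 3 of 3 untreated 4T1 libraries, and 13 in 3 of 3 treated and untreated B16F10 libraries. Of all promoters, 54.3% were called in all 6 4T1 libraries and 48% in all 6 of B16F10. Fkbp10 and P3h4 shared the same 4T1 peak, with its summit outside the Fkbp10 window, so they are a single measurement. In untreated cells 14 of the 65 (21.5%, against 8.03% of all promoters) were called in 4T1 and not in B16F10, and 1, Timp4, a metalloprotease inhibitor, in B16F10 and not in 4T1. Fkbp10 and P3h4 are both among the 14.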

How the data were processed

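Members and lists were chosen with earlier results of these data known. The deposited files were 1 narrowPeak list per library. The submitters' processing notes name Bowtie2, Picard, MACS2 and the build mm10; options, roles and versions are not given in the sources used here. The authors' fold enrichment is a ratio to local background. The deposited −log10 p and −log10 q values grow with depth, and the deposited score is derived from −log10 q. Depth is unknown beyond the minimum of 30 M reads per sample in the labels. Lists were called per library, end at a q of 0.05 and hold no counts, so no counting interval could be given. Peaks on 21 chromosomes were kept; the list of B16F10 DAC replicate 2 holds no others.

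Genes are GENCODE M21 on GRCm38, the assembly that mm10 names, with 27 duplicated symbols left out; a gene counts once. Promoter sequences are from GRCm38, with starts set by GENCODE or, where further upstream, RefSeq. Regions in gene bodies are peaks of the 6 libraries of a line merged at 1 bp of overlap, with midpoints inside the gene and outside all promoter windows. Exact two-sided permutation tests used 20 relabellings within a line and 400 over both, with Benjamini-Hochberg adjustment over all promoters. Named with values are members called in 1 arm or 1 untreated line alone, the 5 of highest median fold among those called in all 12 libraries, matrix genes called in 1 arm alone and the 5 strongest regions in gene bodies per line; other named genes were picked after their values were seen. The counting of calls was tested on simulated data. Python 3.11.15, numpy 2.4.6, pandas 2.3.3 and matplotlib 3.10.9 were used.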

Additional observations from a re-analysis of the deposited data

How the results depend on the processing

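The count of 4 promoters called in DAC libraries alone in 4T1 became 0 with a −log10 q of at least 5, a fold enrichment of at least 5 or an equal number of peaks, 7 with promoters of 2000 bp on each side (with Col9a3, Adamts2 and Adamtsl2) and 9 with 2 of 3 libraries, and was 4 to 6 with 1 library left out. The 9 were 26.5% of the members with no control call, against 13.5% of all such promoters. In controls alone in 4T1 the count was 2, 4 and 3 in the first 3 settings and 1 to 2 with 1 library left out. Counts with no share of all promoters or regions, here or above, are not read as results about the members. In B16F10 the count in DAC libraries alone was 2 (Col4a1 and Col4a2, which share a peak) with the summit inside the promoter, 4 with 2 of 3 libraries and 0 to 3 with 1 library left out. The Col4a1 and Col4a2 count rests on control summits just outside the window. The count in controls alone was 1 (Col4a6, touched by the edge of the Col4a5 peak that all 6 libraries called) with 2 of 3 libraries and 0 to 1 with 1 library left out. The 3 promoters of untreated B16F10 became 1 with 500 bp on each side and 5 with every transcript start. The 14 of untreated 4T1 stayed between 11 and 16 in all settings. In gene bodies the 4T1 count in DAC libraries alone was 19 with a fold of at least 5, 24 with equal numbers, 80 with 2 of 3 libraries and 52 to 65 with 1 library left out, and in controls alone 48 with equal numbers and 30 to 37 with 1 left out. In B16F10 it was 25 with 2 of 3 libraries and 7 to 13 with 1 left out, and in controls alone 0 with either threshold, 7 with 2 of 3 libraries and 1 to 5 with 1 left out. The cause was not tested. Of 154 values of single promoters under these alternatives, 120 were unchanged, 34 moved and 0 turned round.

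Libraries of the 2 arms share replicate numbers, and the labels do not say whether these pair them. The same-numbered deviations over promoters correlated at −0.0302, 0.0124 and 0.0401 in 4T1 and −0.0319, −0.0689 and 0.0257 in B16F10. Differently numbered ones lay between −0.0475 and 0.0708, so these values single out no pairing and cannot exclude one. With the replicate number as a block, 0 members reached an exact permutation p of 0.05, as without it, and 6 of all promoters did. With 2000 bp on each side and no block 1 member, Adamtsl2, reached it. With every annotated start counted, Adamtsl2 was called in 3 of 3 libraries of each arm of both lines. Presence or absence in 3 libraries and the threshold of each list limit these comparisons.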
